A study of Homo sapiens with 6 samples.

Results

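The 10 genes described here make, lengthen and desaturate fatty acids or control that programme. They are ACLY, ACSS2, ACACA, FASN, SCD, FADS1, FADS2, ELOVL5, ELOVL6 and SREBF1, and they were matched by symbol, from a list drawn up with earlier results of these data known. All 10 were found among the 20263 genes of the count table, and all 10 passed the filter on low counts that left 12690 genes for testing. All samples were of 1 line, MV4-11, which is human, comes from an acute myeloid leukemia and has the FLT3-ITD mutation, an internal tandem duplication in a receptor tyrosine kinase, so every group shares it. Cells received 100 nM venetoclax, 2.5 µM cyclosporine A (CSA) or both drugs for 24 h, and the labels give no separate doses for the combination. Each group had 2 RNA-seq libraries, and no untreated cells were analysed here. Venetoclax inhibits the survival protein BCL2, and CSA binds cyclophilins and inhibits the phosphatase calcineurin. The labels do not say whether replicates are separate cultures, and p-values therefore reflect only the spread between these libraries, which may be technical.

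Cells build fatty acids from acetyl-CoA in the cytosol. ACLY cleaves citrate to acetyl-CoA, ACSS2 makes it from acetate, ACACA carboxylates it to malonyl-CoA, and FASN joins these units into the saturated fatty acid palmitate. ELOVL6 lengthens palmitate, and SCD, the stearoyl-CoA desaturase, puts a double bond into the saturated chains, which yields oleate and palmitoleate. FADS2 and FADS1 are the desaturases of the polyunsaturated pathway, and ELOVL5 lengthens the chains between their steps. SREBF1 encodes the transcription factor SREBP-1, which is held in the endoplasmic reticulum membrane by INSIG proteins and, when released, activates most of these genes.

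SCD was the member with the clearest difference between groups, so the DNA before its start site is shown beside that of FADS2, the desaturase gene with the next clearest difference, and of ACLY, whose venetoclax libraries differed most after those of the scarce ELOVL6. SCD lies on chromosome 10 (100347124 to 100364834, plus strand, GRCh38), FADS2 on chromosome 11 (61792980 to 61867354, plus strand) and ACLY on chromosome 17 (41866908 to 41930542, minus strand). The sequences are RefSeq promoter sequences of build GRCh38.p14, written 5′ to 3′ on the strand of the gene. They are limited to bases before the RefSeq start that no GENCODE exon covers. The FADS2 and ACLY stretches lie inside the gene spans given above, which begin farther upstream. Capitals mark CCAAT, the box bound by the factor NF-Y, and GGGCGG, a box bound by SP1, read on both strands. Both factors are known partners of SREBP proteins at lipid genes.
SCD, chr10:100346983-100347123, plus strand: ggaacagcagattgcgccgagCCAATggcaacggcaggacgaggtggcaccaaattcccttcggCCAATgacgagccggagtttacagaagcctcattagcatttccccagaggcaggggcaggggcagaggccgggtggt
FADS2, second RefSeq start, chr11:61816154-61816255, plus strand: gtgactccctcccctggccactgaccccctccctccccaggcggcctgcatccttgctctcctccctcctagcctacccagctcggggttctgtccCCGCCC
ACLY, chr17:41919023-41919272, minus strand: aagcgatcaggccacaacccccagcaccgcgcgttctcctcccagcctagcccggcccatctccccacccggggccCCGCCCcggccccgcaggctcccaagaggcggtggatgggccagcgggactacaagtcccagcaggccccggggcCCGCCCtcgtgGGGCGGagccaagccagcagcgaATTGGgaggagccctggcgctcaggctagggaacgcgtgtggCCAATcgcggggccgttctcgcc

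The stretches printed for SCD and ACLY hold 2 CCAAT boxes each, and the FADS2 stretch holds none. The SCD stretch ends 110 bases and the FADS2 stretch 149 bases before the RefSeq start. GGGCGG is absent from the SCD stretch, but the whole 250 bases before the SCD start hold 2. The search was also run on the whole 250 bases before every RefSeq start, in which 32.0% of 35116 windows hold CCAAT and 42.6% hold GGGCGG. Of the 10 genes, 9 have such a window, with 14 windows in all, and FASN has no entry in the table used. Besides SCD and ACLY, CCAAT was found in windows of ELOVL5 (2 boxes), ACACA (2 before start 3, 1 before start 2) and ACSS2 (1 before start 1). It was absent before ACACA start 1 and ACSS2 start 2, and from the windows of FADS1, FADS2, ELOVL6 and SREBF1. GGGCGG was absent before ACACA start 3, FADS2 start 1 and the ELOVL5 start, and present in every other member window. ELOVL5 is the only member with CACGTG, the E-box, which 6.35% of windows hold. TCACNCCAC, a form of the sterol response element bound by SREBP, was found in 0.883% of all windows and in none of the members' windows. A match is a string of letters and no measured binding site, and a window without one says only that these letters are not there. The start of FADS1 lies 800 and 599 bases from the RefSeq starts of FADS2, on the opposite strand.

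Total counts per library ranged from 26567900 to 30738957. Venetoclax replicate 2 stood apart: 41.5% of its counts fell on genes of the mitochondrial genome, against 7.41% to 15.2% in the other 5 libraries. The log2 difference between replicates had an SD over nuclear genes of 0.83 under venetoclax, 0.46 under CSA and 0.52 under both drugs, so a fold change or median against venetoclax is also given without its replicate 2 where that moves it by over 1.5 times or changes its sign. All 12 myeloid markers were at 1 or more CPM, the count scaled by library depth, in every library. The T-cell markers CD3D, CD3E, CD3G and CD2 and the red-cell markers HBA1, HBA2 and HBB were at 0. The summed CPM, scaled by total count alone, of 5 T and NK markers was 3.52 to 10.2 under venetoclax, 9.79 to 12.9 under CSA and 9.17 to 15.9 under both drugs, of which NKG7 made up the whole. For 5 B-cell markers the sums were 1.88 to 5.50, 4.78 to 5.74 and 3.73 to 4.32, and for 5 epithelial and fibroblast markers 0.279 to 0.602, 0.478 to 0.553 and 0.702 to 1.67. The part of these levels in the results was not tested.

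In these cells SCD, ACLY and FASN were the most abundant transcripts of the 10 per kilobase of exon, and ELOVL6 was close to absent. Mean levels over the 6 libraries, in RPKM, the count scaled by depth and exon length, were 67.7 for SCD, 63.2 for ACLY and 49.9 for FASN. ELOVL5 followed at 28.3 RPKM, FADS1 at 18.5, FADS2 at 17, SREBF1 at 13.8 and ACACA at 10.5. ACSS2 was at 4.86 RPKM and ELOVL6 at 0.106. The exon length joins all annotated exons of a gene, 11026 bases for FADS2 and 10230 for FADS1 but 5362 for SCD and 3813 for ELOVL5. The order of the genes depends on that length, and which exons these cells use was not tested. The ranges over libraries overlapped for the neighbours SCD and ACLY, ACLY and FASN, FADS1 and FADS2, FADS2 and SREBF1, and SREBF1 and ACACA. FASN (35.4 to 61.4 RPKM) and ELOVL5 (26.0 to 31.1) did not overlap, nor did ACACA (8.99 to 11.5), ACSS2 (4.00 to 5.90) and ELOVL6 (0.0493 to 0.189).

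The member with the highest RPKM was not the same under every treatment. SCD ranked 1 by RPKM in both venetoclax libraries and both CSA libraries, and ACLY ranked 1 in both combination libraries. The ratio of SCD to ACLY RPKM, which does not depend on how libraries are scaled to each other, was 1.10 and 1.61 under venetoclax, 1.07 and 1.05 under CSA, and 0.807 and 0.948 under both drugs. The ratio of SCD to FADS1 was 4.37 and 3.57 under venetoclax, 4.04 and 3.93 under CSA, and 2.88 and 3.03 under both drugs. SCD to ELOVL5 stood at 3.00 and 2.18 under venetoclax, at 2.93 and 2.98 under CSA, and at 1.80 and 1.63 under both drugs. In each of these 3 ratios both combination libraries lay below all 4 single-drug libraries, which shows unequal change of the genes and not which of them changed. SCD to FASN did not separate the groups: it was 1.31 and 1.89 under venetoclax, 1.296 and 1.41 under CSA, and 1.08 and 1.298 under both drugs, so that combination replicate 2 lay just above CSA replicate 1. No test of a ratio was made.

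**Figure D1:**
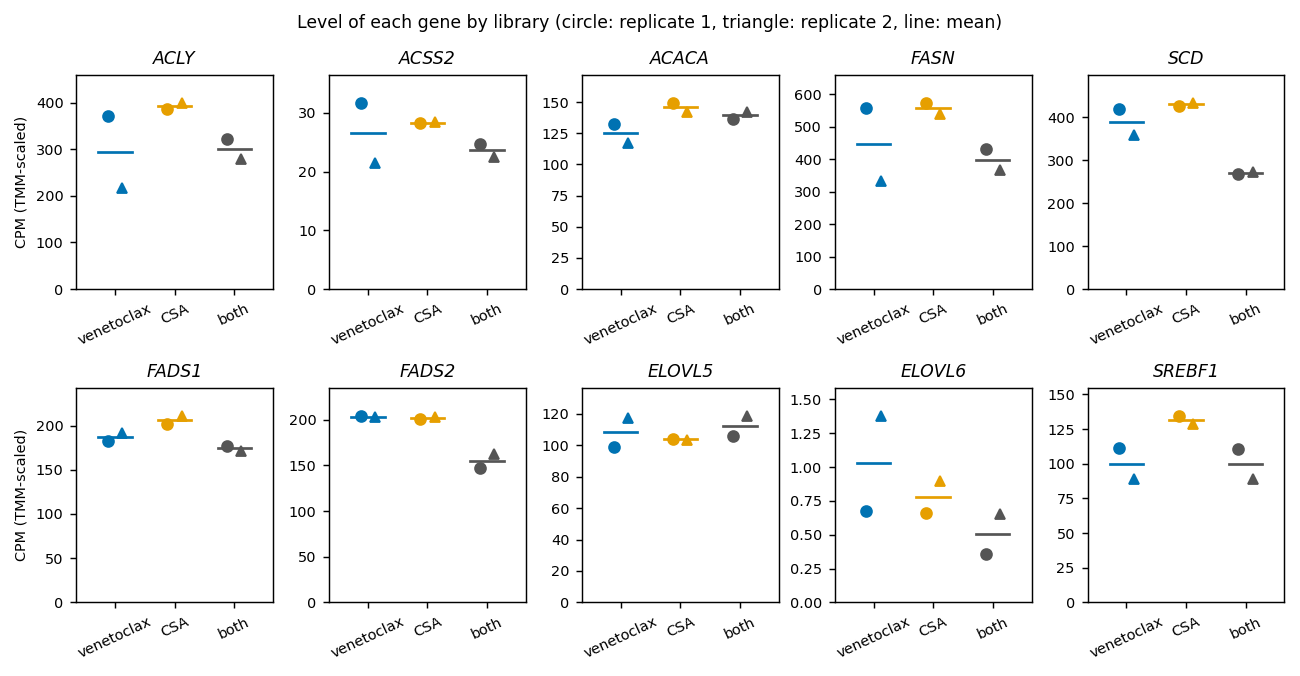
Level of each of the 10 genes in CPM (scaled by trimmed mean of M-values, vertical axis from 0) in the venetoclax, CSA and combination ("both") libraries; circles are replicate 1, triangles replicate 2 and lines the group means. SCD with both drugs (267 and 272 CPM) lies below all single-drug libraries, and ACLY and FASN are split between the venetoclax replicates.

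Of the genes that feed and run palmitate synthesis, ACLY, FASN and ACSS2 differed widely between the venetoclax replicates. ACLY was at 372 and 217 CPM (scaled by the trimmed mean of M-values, TMM) in venetoclax replicates 1 and 2, at 387 and 401 under CSA, and at 322 and 279 under both drugs. FASN was at 560 and 332 CPM under venetoclax, at 575 and 540 under CSA, and at 432 and 366 under both drugs. For both genes the combination lay below CSA without overlap and between the venetoclax replicates. ACSS2 was at 31.8 and 21.5 CPM under venetoclax, 28.3 and 28.4 under CSA, and 24.7 and 22.5 under both drugs, so that the venetoclax replicates lay on either side of the other 4 libraries. ACACA, which supplies FASN with malonyl-CoA, kept to a narrow range, with 133 and 117 CPM under venetoclax, 150 and 142 under CSA, and 137 and 142 under both drugs. The ratio of FASN to ACACA RPKM was 5.86 and 3.94 under venetoclax, 5.34 and 5.27 under CSA, and 4.38 and 3.58 under both drugs.

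The desaturase genes had closer replicates. SCD was at 419 and 359 CPM under venetoclax, 427 and 434 under CSA, and 267 and 272 under both drugs. Every single-drug library of SCD thus stood above both combination libraries. FADS2 was at 204 and 203 CPM under venetoclax, 201 and 204 under CSA, and 147 and 163 under both drugs, again with no overlap. FADS1, its opposite-strand neighbour, was at 183 and 192 CPM under venetoclax, 202 and 211 under CSA, and 177 and 171 under both drugs. The combination of FADS1 again lay lowest, by a smaller gap, and venetoclax lay below CSA, unlike in FADS2. The 2 genes share 490 exon bases, 4.79% of FADS1 and 4.44% of FADS2, and the strand setting of the counting was not stated, so their counts are not fully separate. The ratio of FADS2 to FADS1 RPKM was 1.04 and 0.983 under venetoclax, 0.925 and 0.896 under CSA, and 0.773 and 0.882 under both drugs.

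In ELOVL5 and SREBF1 the combination did not lie below every single-drug library as in SCD, and in the scarce ELOVL6 it did. ELOVL5 was at 99.1 and 117 CPM under venetoclax, 104 and 104 under CSA, and 106 and 119 under both drugs, which put the combination above CSA. ELOVL6 had raw counts of only 20 and 26 under venetoclax, 20 and 30 under CSA, and 12 and 18 under both drugs, so it carries little information. It was at 0.678 and 1.38 CPM under venetoclax, 0.661 and 0.900 under CSA, and 0.360 and 0.654 under both drugs, which put both combination libraries below the other 4, by a narrow margin for replicate 2. In each library, 64.8% to 66.7% of counts from 1 to 20 were even numbers, so low counts may not be single independent read pairs. SREBF1 was at 111 and 89.2 CPM under venetoclax, 135 and 128 under CSA, and 111 and 89.2 under both drugs. In CPM, both groups that received venetoclax lay below CSA for SREBF1, and their values were almost identical. SREBF1 shares 556 exon bases (6.92%) with RAI1 on the opposite strand.

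The comparison of the combination with CSA shows the 10 genes when venetoclax is added. SCD stood in the combination at 0.626 times its CSA level (log2 fold change −0.68, SE 0.15, 95% confidence interval −1.04 to −0.31), FASN at 0.716 times and FADS2 at 0.766 times, with ACLY and SREBF1 between them. In all, 9 of 10 fitted changes were below 0, where 50.3% of all genes were, and their median was −0.39, beside −0.00 over all genes. In 8 of 10 the combination lay below CSA without overlap, against 23.7% of all genes, and in ELOVL5 it lay above, against 23.5%. In bulk RNA, less transcript per cell and fewer cells that express a gene cannot be told apart.

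None of these differences passed the test across all genes. In edgeR's quasi-likelihood test with Benjamini-Hochberg adjustment, 0 of the 10 members and 0 of 12690 genes were called at an adjusted p of 0.05 (0% of genes), while DESeq2 called 60 genes (0.513%) and limma-voom 1 (0.00788%), no member among them. At an unadjusted p under 0.05, edgeR had 462 genes (3.64%), and among the genes with lower values (1.69% of all tested) were 2 members. These were SCD, with an edgeR p of 0.00432 and an adjusted p of 0.843, and FADS2 (log2 fold change −0.38, SE 0.14), with an edgeR p of 0.0368 and an adjusted p over 0.99. FASN stood at −0.48 (SE 0.27), ACLY at −0.39 (SE 0.27), SREBF1 at −0.39 (SE 0.19), ACSS2 at −0.26 (SE 0.23) and FADS1 at −0.24 (SE 0.14). ELOVL6 stood at −0.63 with an SE of 0.54, ACACA at −0.06 (SE 0.15) and ELOVL5 at 0.11 (SE 0.16).

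The common spread of this fit draws on the venetoclax libraries, although they are not part of the comparison. Leaving out either of them removes that group's spread from the fit, and only the omission of replicate 2 is shown here. Without venetoclax replicate 2 the SCD log2 fold change was again −0.68, its SE went from 0.15 to 0.08, and its edgeR adjusted p was 0.0877, in a fit that called 0 members and 0.185% of genes. In that fit 6 members had an unadjusted edgeR p under 0.05 with lower values, which 5.71% of genes had, namely ACLY, FASN, SCD, FADS1, FADS2 and SREBF1. DESeq2 with all 6 libraries gave SCD an adjusted p of 0.0604. Limma-voom with library quality weights, which gives an erratic library less weight, called SCD at an adjusted p of 0.0485 along with 0.339% of genes. DESeq2 without venetoclax replicate 2 called SCD (adjusted p 9.60e-08) and FASN (adjusted p 0.0320) along with 2.24% of genes. Over 17 alternative settings the SCD log2 fold change ran from −0.72 to −0.66, while the adjusted p depended strongly on the setting. Most of these settings use the same CSA and combination libraries, so the fold change had little room to move.

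**Figure D2:**
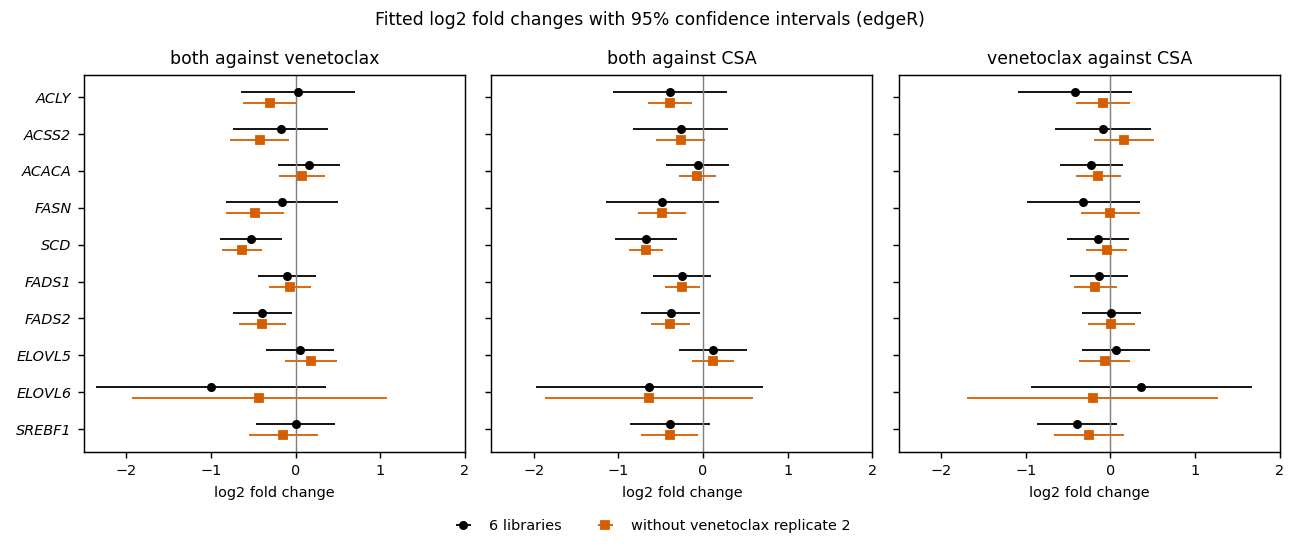
Fitted log2 fold changes of the 10 genes (horizontal axis) with 95% confidence intervals from edgeR in the 3 comparisons, in the fit of 6 libraries (black circles) and without venetoclax replicate 2 (orange squares). In combination against CSA the SCD estimate is −0.68 in both fits, with a narrower interval in the second.

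The comparison of the combination with venetoclax shows the genes when CSA is added, and shares the combination libraries with the comparison before. SCD stood in the combination at 0.694 times its venetoclax level (log2 fold change −0.53, SE 0.15, interval −0.90 to −0.16) and FADS2 at 0.762 times (−0.39, SE 0.14, interval −0.74 to −0.04). Their edgeR p-values were 0.0129 and 0.0341 and their adjusted p-values 0.355 and 0.420. No member passed the test: edgeR called 0 of 12690 genes (0%), with 1372 genes (10.8%) at an unadjusted p under 0.05, DESeq2 called 311 genes (2.55%) and limma-voom 0, and no member was called by either. Fitted changes were below 0 in 7 of 10 members, against 50.9% of all genes. Of the 10 genes, 2 had an unadjusted p under 0.05 with lower values, which 5.48% of all genes had. The combination lay below venetoclax without overlap for SCD, FADS1, FADS2 and ELOVL6, 4 of 10 against 18.9% of all genes, and above it for ACACA, 1 of 10 against 19.2%.

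No other member had an unadjusted edgeR p under 0.05 in this comparison. ACLY stood at 0.03 (SE 0.27), FASN at −0.16 (SE 0.27), ACSS2 at −0.18 (SE 0.23), SREBF1 at −0.00 (SE 0.19) and ELOVL5 at 0.05 (SE 0.16). FADS1 stood at −0.10 (SE 0.14), ACACA at 0.16 (SE 0.15) and ELOVL6 at −1.0 (SE 0.55). Without venetoclax replicate 2, FASN was at −0.48, ACSS2 at −0.42, ACLY at −0.30 and SREBF1 at −0.14, ELOVL6 moved to −0.43 (SE 0.59) and FADS1 to −0.07, and ELOVL5 was at 0.18 and ACACA at 0.08. SCD was then at −0.63 with an edgeR adjusted p of 0.0820, in a fit that called 0 members and 0.379% of genes. In that fit SCD, FADS2, FASN and ACSS2, 4 of 10, had an unadjusted p under 0.05 with lower values, which 7.17% of genes had. DESeq2 without that library called SCD at an adjusted p of 0.000143, among 4.11% of genes. The median of the 10 was −0.13 with 6 libraries and −0.35 without that library, beside −0.01 and 0.01 over all genes. Without venetoclax replicate 1 in its place, FASN was at 0.27 and ACSS2 at 0.13, and SCD at −0.41 with an edgeR adjusted p of 0.0366, in a fit that called 3426 genes (26.4%). SCD and FADS2 were below 0 in each of the 17 alternatives, with ranges of −0.63 to −0.29 and −0.59 to −0.13, the upper ends coming from scaling by library size alone. That scaling moved the median of all genes to 0.26 and the median of the 10 to 0.10.

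The comparison of the single drugs showed no member with an unadjusted edgeR p under 0.05, where 4.8% of all genes had one. EdgeR called 0 of 12690 genes (0%), with 609 genes at an unadjusted p under 0.05, and DESeq2 called 63 (0.496%) and limma-voom 0, none of them a member. The values nearest to a difference were those of ACLY (−0.42, SE 0.27), SREBF1 (−0.39, SE 0.19), FASN (−0.32, SE 0.27) and ACACA (−0.23, SE 0.15), all lower under venetoclax. SCD stood at −0.15 (SE 0.15), FADS1 at −0.14 (SE 0.14) and FADS2 at 0.01, with an interval of −0.34 to 0.36. ACLY, ACACA, SCD, FADS1 and SREBF1 lay below CSA without overlap, 5 of 10 against 19.9% of all genes, and 7 of 10 fitted changes were below 0, against 50.2%. Without venetoclax replicate 2, ACLY was at −0.09, FASN at 0.00, SREBF1 at −0.25, ACACA at −0.14 and SCD at −0.05, and the median of the 10 went from −0.14 to −0.08. Without replicate 1 in its place, edgeR called ACLY (−0.86, adjusted p 0.0172) and FASN (−0.75, adjusted p 0.0217), in a fit that called 4385 genes (33.8%).

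The difference between the venetoclax replicates followed the base composition of the transcripts, and the members span that range. Among all tested genes the median log2 ratio of replicate 1 to replicate 2 ran from −0.56 in transcripts of at most 40% GC to 0.66 above 60% GC under venetoclax. The same medians ran from −0.09 to 0.09 under CSA and from −0.09 to 0.10 under both drugs. FASN (65.3% GC) differed by 0.75 between the venetoclax replicates and ELOVL5 (41.7%) by −0.24, each within 0.1 of the median of its GC band (0.66 and −0.31). The other members lay farther from theirs. ACLY, at 52.2% GC, differed by 0.78 and ACSS2, at 54.6%, by 0.56, above the 0.23 of genes between 50% and 55%, and FADS1, at 50.1%, lay below it with −0.07. FADS2, at 58.6% GC, differed by 0.01, where the median was 0.42, and SREBF1, at 62.8%, by 0.32, where it was 0.66. SCD (47.1%) and ACACA (48.7%) differed by 0.22 and 0.18 in a band with a median of −0.04, and ELOVL6 (41.2%) by −1.02 in the band of ELOVL5.

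**Figure D3:**
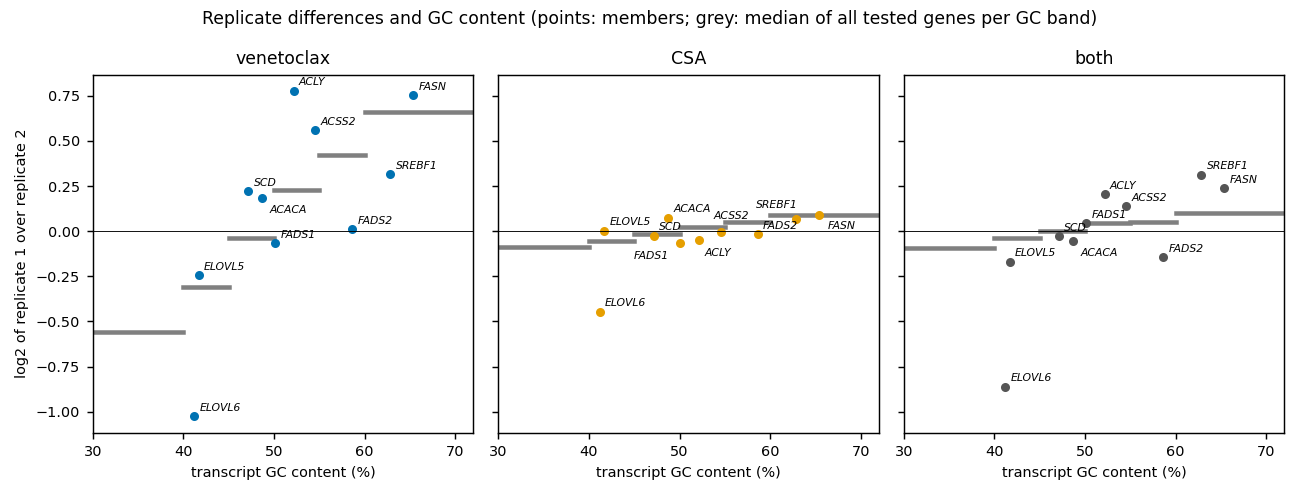
Log2 ratio of replicate 1 to replicate 2 (vertical axis) against transcript GC content in percent (horizontal axis), by group; points are the 10 genes and grey bars the medians of all tested genes in 6 GC bands. With venetoclax the medians climb from −0.56 to 0.66, and FASN and ELOVL5 lie near the median of their band while the other 8 genes lie farther off.

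With each library's trend with GC content removed, a step added after the data were seen, SCD kept its values, at −0.51 (SE 0.13) against venetoclax and −0.68 (SE 0.13) against CSA. FADS2 went to −0.59 against venetoclax and −0.29 against CSA. FASN went to −0.33 against venetoclax and −0.34 against CSA, with the same SE of 0.11 in each, and SREBF1 to −0.22 and −0.27. Unadjusted edgeR p-values were then 0.0189 against venetoclax and 0.156 against CSA for FADS2, and 0.0244 and 0.0222 for FASN. No member was called by edgeR after this step, in a fit that called 29 of 12680 genes against venetoclax. In venetoclax against CSA, the step moved SREBF1 from −0.39 to −0.05 (SE 0.15) and FASN from −0.32 to −0.01 (SE 0.11). ACLY stood there at −0.31 (SE 0.21), ACACA at −0.21 (SE 0.12) and FADS2 at 0.29 (SE 0.18).

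**Figure D4:**
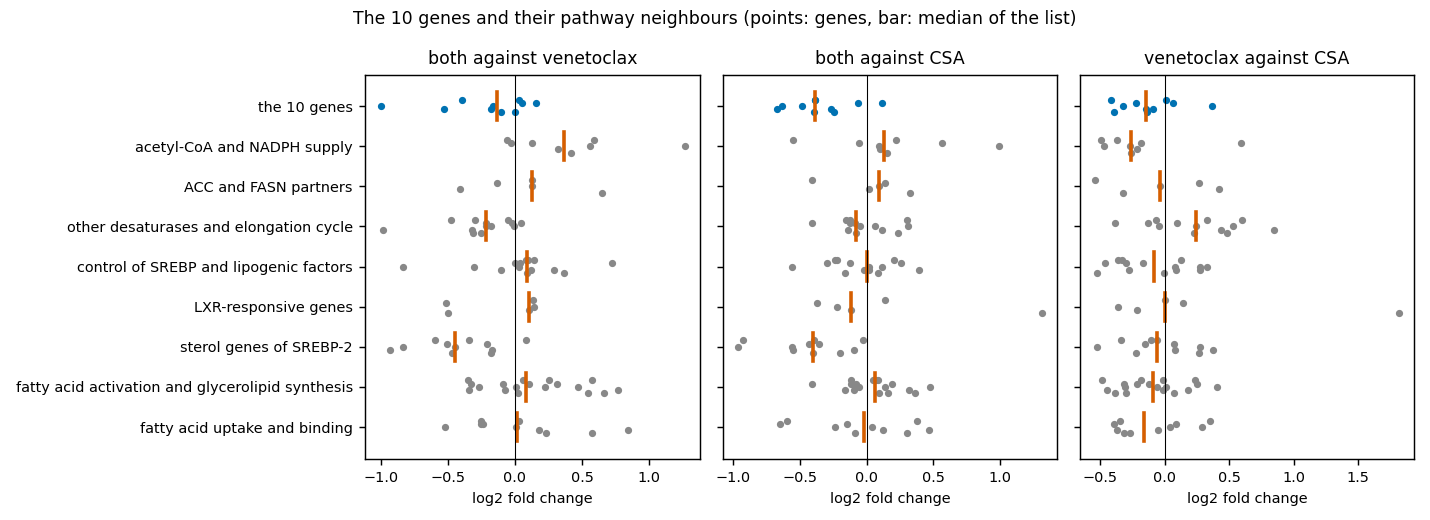
Fitted log2 fold changes (horizontal axis, 6 libraries) of the 10 genes (blue) and of the tested genes of 8 neighbouring lists (grey) in the 3 comparisons; orange bars are the medians of the lists. The sterol genes have medians of −0.44 and −0.40 in the 2 comparisons of the combination, and the acetyl-CoA and NADPH list medians of 0.37 and 0.13.

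Around the 10 genes stand the suppliers of their substrates. NADPH, which FASN consumes, comes from the pentose phosphate enzymes and from ME1, the malic enzyme of the cytosol. ME1 was at 1.93 and 2.60 CPM under venetoclax, 2.48 and 2.94 under CSA, and 6.21 and 4.62 under both drugs, with no overlap. Its log2 fold change was 1.27 (SE 0.29, edgeR adjusted p 0.261) against venetoclax and 1.00 (SE 0.28, adjusted p over 0.99) against CSA. PGD, a dehydrogenase of the pentose phosphate pathway, was at 0.59 (SE 0.16) against venetoclax and 0.22 (SE 0.16) against CSA, and IDH1 at 0.32 and 0.10. SLC25A1, which carries citrate out of mitochondria to ACLY, was at −0.55 (SE 0.43) against CSA. Of the 8 genes of acetyl-CoA and NADPH supply, 6 were above 0 in each comparison of the combination. Of all genes 49.1% and 49.7% were above 0. The medians of the list were 0.37 against venetoclax (0.18 without venetoclax replicate 2) and 0.13 against CSA. Among those above 0 against CSA was CS, at 129 and 387 CPM under CSA and 363 and 403 under both drugs. For CS, CSA replicate 2 lay between the combination libraries and CSA replicate 1 far below them. Of the 8, 0 passed edgeR's test, with 2 and 1 higher at an unadjusted p under 0.05 (5.33% and 1.95% of all genes).

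The direct partners of ACACA and FASN include enzymes that make or break down malonyl-CoA. ACACB, the mitochondrial form of acetyl-CoA carboxylase, was at 16.5 and 15.2 CPM under venetoclax, 23.6 and 22.6 under CSA, and 18.5 and 16.1 under both drugs. Both groups under venetoclax lay below CSA, at −0.54 (SE 0.18) and −0.41 (SE 0.18). Of 6 such partners 5 were tested and 0 passed edgeR's test in any comparison. In the fit of 6 libraries 1, ACACB in venetoclax against CSA, was lower at an unadjusted p under 0.05 (2.46% of all genes). SCD5, the second human stearoyl-CoA desaturase, was at −0.48 (SE 0.22) against venetoclax and −0.15 (SE 0.22) against CSA. Of the 13 tested genes of the desaturation and elongation list, 12 were below 0 against venetoclax (median −0.22) and 8 against CSA (median −0.08), where 50.9% and 50.3% of all genes were. The first count rested on venetoclax replicate 2: without it 14 genes of the list were tested, 8 were below 0 and 6 above (49.1% of all genes below 0), and the median was −0.12. In both fits 0 passed edgeR's test or had an unadjusted p under 0.05 in any comparison.

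The genes that govern SREBP had fold changes in both directions. SREBF2, which encodes the form that mainly drives sterol genes, was at 0.10 (SE 0.16) against venetoclax and −0.24 (SE 0.16) against CSA, and SCAP, the escort of SREBP, at 0.04 and −0.13 (SE 0.19 in each). Without venetoclax replicate 2 both were below 0 against venetoclax, SREBF2 at −0.04 and SCAP at −0.15. INSIG1, which holds SREBP in the membrane and is itself an SREBP target, was at 57.2 and 103 CPM under venetoclax, 68.1 and 64.4 under CSA, and 43.4 and 46.6 under both drugs. Its log2 fold change was −0.83 (SE 0.29, edgeR adjusted p 0.420) against venetoclax and −0.56 (SE 0.29) against CSA. Against venetoclax it moved to −0.34 (SE 0.12) without venetoclax replicate 2, the library with the highest INSIG1 level. Of the 14 tested regulators, 0 passed edgeR's test in any comparison. In the fit of 6 libraries, 1 was higher and 1 lower at an unadjusted p under 0.05, both against venetoclax. Of all genes 5.33% and 5.48% were. The medians were 0.09 against venetoclax (0.02 without venetoclax replicate 2) and 0.00 against CSA. NR1H3, which encodes the receptor LXR alpha, an inducer of SREBF1, was at 0.14 (SE 0.32) and −0.22 (SE 0.31), and its target ABCA1 at 0.14 in each (SE 0.21). Against venetoclax without its replicate 2, NR1H3 was at −0.18 and ABCA1 at 0.36. MYLIP, another LXR target, was at −0.51 (SE 0.15) against venetoclax and −0.37 (SE 0.15) against CSA. Of 5 tested LXR-responsive genes 0 passed edgeR's test. In the fit of 6 libraries, MYLIP was lower against venetoclax at an unadjusted p under 0.05 (5.48% of all genes).

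Sterol genes, which answer mainly to SREBF2, were below 0 in 10 of 11 cases against venetoclax (median −0.44) and in 11 of 11 against CSA (median −0.40), where 50.9% and 50.3% of all genes were. INSIG1 is on this list and among the regulators above, and NR1H3 and LPCAT3 are also shared between lists. Of the 11, 0 passed edgeR's test. At an unadjusted p under 0.05, 4 against venetoclax, INSIG1 among them, and 3 against CSA were lower, which 5.48% and 1.69% of all genes were. Without venetoclax replicate 2 the count against CSA was 7, where 5.71% of all genes were lower at that p. STARD4, a sterol carrier, was at −0.93 (SE 0.19) and −0.55 (SE 0.19), and LSS, lanosterol synthase, at −0.93 (SE 0.31) against CSA.

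Downstream of the 10 genes, fatty acids are activated and built into glycerolipids or taken up from outside. AGPAT4, an acyltransferase of this path, was at 8.95 and 10.1 CPM under venetoclax, 13.1 and 12.9 under CSA, and 17.7 and 14.6 under both drugs, and at 0.77 (SE 0.20, edgeR adjusted p 0.331) against venetoclax. AGPAT5 was at 0.66 (SE 0.27) against venetoclax, and at 0.36 (SE 0.17) without venetoclax replicate 2. Of 18 tested genes of activation and glycerolipid synthesis, 12 were above 0 against venetoclax and 10 against CSA (49.1% and 49.7% of all genes), and 0 passed edgeR's test, with 2 higher against venetoclax at an unadjusted p under 0.05 (5.33% of all genes). VLDLR, a lipoprotein receptor, was at 41.9 and 54.6 CPM under venetoclax, 59.3 and 56.9 under CSA, and 71.3 and 72.6 under both drugs. FABP5, a fatty acid binding protein, was at −0.52 (SE 0.21) against venetoclax and at −0.28 (SE 0.15) without venetoclax replicate 2. SLC27A1, a fatty acid transporter, was at −0.65 (SE 0.26) against CSA. Of 10 tested uptake and binding genes, 0 passed edgeR's test in any comparison. At an unadjusted p under 0.05, 2 were higher and 1 lower against venetoclax (5.33% and 5.48% of all genes), and 1 was lower against CSA (1.69%). Without venetoclax replicate 2, 1 gene of each of these 2 lists was higher against venetoclax at that p, and 3 uptake and binding genes were higher against CSA, which 6.25% of all genes were.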

How the data were processed

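The labels' protocols name Trizol extraction, the KAPA RNA HyperPrep kit and paired reads of 150 bp. STAR, RSEM, DESeq2 and hg38 are named per the submitters' processing notes, without versions or roles. The table deposited by the authors gives raw read counts per gene as whole numbers. Of the count columns, 2 match no labelled sample and were not used. Samples were grouped by title. Genes passing filterByExpr (minimum count 10) were scaled by TMM, and groups were compared by edgeR 4.0.16 under R 4.3.3 (robust quasi-likelihood, two-sided, 3 residual degrees of freedom) in 1 fit of 6 libraries, with Benjamini-Hochberg adjustment over 12690 genes. RPKM used union exon lengths of GENCODE v29, and 20148 gene identifiers paired with a symbol. Alternatives used DESeq2 1.42.0, limma 3.58.1, other scalings and filters, a replicate block and omitted libraries. Leaving out a library assumes that its lone partner varies as the other groups do. The GC trend was removed by loess (span 0.3). The members and lists were chosen with earlier results of these data known. Named genes were all members, up to 3 genes of smallest unadjusted p per list and comparison, and a set of regulators and targets that includes SREBF2, INSIG1, SCAP, NR1H3 and ABCA1; not every gene that qualified is reported here.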

Additional observations from a re-analysis of the deposited data

How the results depend on the processing

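Beside the values above, the alternatives moved counts of called genes more than fold changes. In combination against venetoclax, edgeR's 0 called genes became 311 with DESeq2, 15 with no filter on low counts, 29 with the GC trend removed, 490 with DESeq2 without venetoclax replicate 2, and 0 to 3426 when 1 library was left out. Against CSA, 0 became 60 with DESeq2, 1 with limma-voom, 43 with library quality weights, 4 with no filter, 24 with only the 4 libraries compared, 256 with DESeq2 without venetoclax replicate 2, and 0 to 24 when 1 library was left out. In venetoclax against CSA, 0 became 63 with DESeq2, 2 with no filter, 107 with DESeq2 without venetoclax replicate 2, and 0 to 4385 when 1 library was left out. Called members went from 0 to 1 (DESeq2 without venetoclax replicate 2) and 0 to 1 (1 library left out) against venetoclax, to 1 (quality weights) and 2 (DESeq2 without venetoclax replicate 2) in combination against CSA, and to 0 to 2 (1 library left out) in venetoclax against CSA. The members' median against venetoclax was 0.10 by library size alone, −0.35 with DESeq2 without venetoclax replicate 2 and −0.35 to 0.035 with 1 library left out, and in venetoclax against CSA −0.45 by library size alone (all genes −0.31).

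Single members near 0 changed sign. In combination against venetoclax, library size alone gave FASN 0.026, FADS1 0.18, ACSS2 0.030 and SREBF1 0.24. SREBF1 was 0.0057 with no filter and 0.0035 without mitochondrially encoded genes. ACLY was −0.041 with the GC trend removed and −0.31 with DESeq2 without venetoclax replicate 2. With 1 library left out, ACLY ran from −0.30 to 0.47, FASN from −0.48 to 0.27, ELOVL5 from −0.064 to 0.18, ACSS2 from −0.42 to 0.13 and SREBF1 from −0.17 to 0.17. In venetoclax against CSA, library size alone gave FADS2 −0.30, ELOVL5 −0.28 and ELOVL6 −0.047, the GC step gave ELOVL5 −0.14 and ACSS2 0.092, and DESeq2 without venetoclax replicate 2 gave FASN 0.0024, ELOVL5 −0.068, ELOVL6 −0.21 and ACSS2 0.16. With 1 library left out in that comparison, ELOVL5 ran from −0.070 to 0.18, ELOVL6 from −0.21 to 0.81, ACSS2 from −0.40 to 0.16 and FADS2 from −0.0018 to 0.015. The cause of these changes was not tested.

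Groups share replicate numbers 1 and 2, but the labels do not say that a number marks a shared culture or day. The replicate differences of 2 groups correlated at 0.19 (venetoclax and CSA), 0.25 (venetoclax and combination) and 0.16 (CSA and combination). With the replicate number as a block, edgeR called 0 genes in each comparison, and the members' medians were −0.12, −0.39 and −0.15 against venetoclax, against CSA and between single drugs.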
